A study of Mus musculus with 4 samples.

Results

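The proteasome subunit genes were described here in RNA of whole newborn mouse lenses with and without Hsf4, heat shock transcription factor 4. The members were all genes named Psma, Psmb, Psmc or Psmd followed by digits only, 39 of the 18193 genes with a probe set of 1 symbol, and they were measured by 78 probe sets. The probe set with the highest mean over the 4 arrays stood for each gene, and both probe sets of Psmd6 were described, since 1 of them was known from earlier results of these data to differ. Of the 39 genes, 36 passed the filter on low values (a mean normalized intensity of about 13.0). Psma8, Psmb9 and Psmb11 did not pass it and were not tested.

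The arrays held lens RNA of wild-type mice and of mice labelled Hsf4 knockout, 2 samples each, numbered 1 and 2. All 4 samples came from the 129S3 background at postnatal day 0.5 and were labelled male. How the knockout allele was made, which part of Hsf4 it removes and whether lenses of several animals were pooled is not stated in the labels. No label names separate animals, so the p-values cover the spread between arrays alone, and that spread may be technical.

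The proteasome is the protease that degrades proteins tagged with ubiquitin. Its barrel-shaped core is built of rings of alpha subunits (Psma genes), which gate the entry, and rings of beta subunits (Psmb genes), some of which cut the substrate. A regulatory particle caps the barrel. Its base holds a ring of ATPases (Psmc genes) that unfold substrates and pull them in, and its lid and receptors (Psmd genes) bind and remove ubiquitin. In the lens, ubiquitin and the proteasome take part in the turnover of regulatory and damaged proteins, and fibre cells lose most of their organelles as they mature. Subunit genes are often transcribed in concert, and heat shock factors and the proteasome both serve the handling of misfolded proteins.

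Levels below are intensities after the arrays were brought to 1 distribution by quantile normalization, given for wild type 1, wild type 2, knockout 1 and knockout 2. Changes are log2(intensity + 16) in knockout minus wild type, with the standard error (SE, n = 2 per group), and understate the change of dim genes. P-values are from limma's moderated test with Benjamini-Hochberg adjustment and a threshold of 0.05. With 2 samples against 2, an exact permutation test could not go below 0.333.

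Some arrays stood apart or went against their labels. The single Hsf4 probe set measured 505, 138, 1212 and 413, brighter on the array labelled knockout within each number. Its groups overlapped, as knockout 2 lay below wild type 1. Whether this probe set lies in the deleted part is not known here, so it checks no label. Xist, the RNA of the inactive X chromosome, measured 605 on wild type 1 and 260 on knockout 1, although all samples were labelled male. On the arrays of number 2 it measured 58.0 and 9.01. Eif2s3y, a gene of the Y chromosome, measured 60.4 on wild type 1, 208 on wild type 2, 101 on knockout 1 and 161 on knockout 2. It was thus above the filter on every array, and lower on the arrays of number 1. The sex of the samples was not tested. The 3 control probe sets for 18S ribosomal RNA were bright on the arrays of number 2 only. The 3' one measured 12.8, 349, 10.6 and 3228, the middle one 14.3, 432, 16.7 and 3636, and the 5' one 1.52, 6898, 14.3 and 7309. The deposited median intensity was lowest on knockout 2, at 6.58 against 10.5 to 21.4 on the others. The 10 lens markers had summed levels of 57079 and 52655 in wild type and 55596 and 50287 in knockout, with 0 called by limma (1 at an unadjusted p under 0.05) and a median log2 change of -0.05. Bfsp1, a lens filament protein, measured 5220 and 3785 in wild type and 2186 and 2060 in knockout (log2 -1.06, SE 0.21, limma adjusted p = 0.434), and Bfsp2, its partner, 180, 268, 60.1 and 2907. All 11 striated muscle markers were lower on both knockout arrays, with summed levels of 2899 and 1432 in wild type and 145 and 144 in knockout. Of 9 fibroblast and pericyte markers 8 were lower within both numbers (median log2 -1.33, summed levels 2099, 2554, 1535 and 1228). Neural retina markers summed to 2537, 2791, 2568 and 1233 and erythroid markers to 91.7, 158, 135 and 514, so that knockout 2 stood apart in both. In RNA of whole tissue, fewer cells of a type and less RNA per cell cannot be told apart. The part of these differences in the values below was not tested, except where values without an array are given.

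A single Psmd6 probe set was several times brighter on both arrays labelled knockout, and the other Psmd6 probe set was not. Psmd6 encodes a subunit of the lid of the regulatory particle. Its dimmer probe set measured 115 on wild type 1, 53.2 on wild type 2, 847 on knockout 1 and 860 on knockout 2. The groups lay far apart and the knockout arrays were nearly equal. The means were 84.1 ± 43.8 and 854 ± 9.27 (SD, n = 2), and the log2 change was 3.19 (SE 0.35, 95% interval 2.40 to 3.99, limma adjusted p = 0.0354 over 22519 probe sets). It was 1 of the 2 probe sets called higher in knockout, 0.00888% of those tested, and of 4 called in either direction (0.0178%). As that call was known when the gene was chosen, it is a description and not independent evidence.

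The brighter Psmd6 probe set measured 1006, 1357, 1311 and 1510, so that the groups overlapped. Its log2 change was 0.26 (SE 0.25, 95% interval -0.30 to 0.83, limma adjusted p = 1), and it was -0.32 with values as deposited and -0.15 with median centring, where the medians of all genes were -0.46 and -0.28. The annotation used here gives both probe sets the same transcript record. The suffix of the dimmer probe set's name, _a_at, is the manufacturer's mark for a probe set that matches several transcripts of 1 gene. Probe positions were not used here. Within each array, the log2 value of the dimmer minus that of the brighter probe set was -2.96 and -4.31 on the wild-type arrays and -0.62 and -0.80 on the knockout arrays. The gap was thus narrower on the knockout arrays by 2.34 within number 1 and 3.51 within number 2. These differences do not show which probe set follows the Psmd6 transcript.

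Both numbers gave the same direction for the dimmer Psmd6 probe set, also without any scaling between arrays. Knockout over wild type was 7.36-fold within number 1 and 16.2-fold within number 2 after normalization. As deposited, the values were 181 and 36.1 in wild type and 1143 and 305 in knockout, ratios of 6.32 and 8.45 within the numbers. The brighter probe set as deposited measured 1516 and 1064 in wild type and 1746 and 588 in knockout, with ratios of 1.15 and 0.552. The call was lost when the deposited values were used unscaled (log2 2.59, limma adjusted p = 1.00). Median centring also ended it (2.76, adjusted p = 0.979), as did an offset of 1 (3.43, adjusted p = 0.0994), testing without the filter (adjusted p = 0.194) and a fit with no trend of the variance (adjusted p = 0.0708). Without each array in turn the log2 change was 2.71 to 3.62 and the limma adjusted p 5.03e-10 to 0.0373. In such a fit 1 group has a single array, which is assumed to vary like the other group's 2, and between 5 and 663 probe sets passed, so these p-values are no measure of stability.

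**Figure D1:**
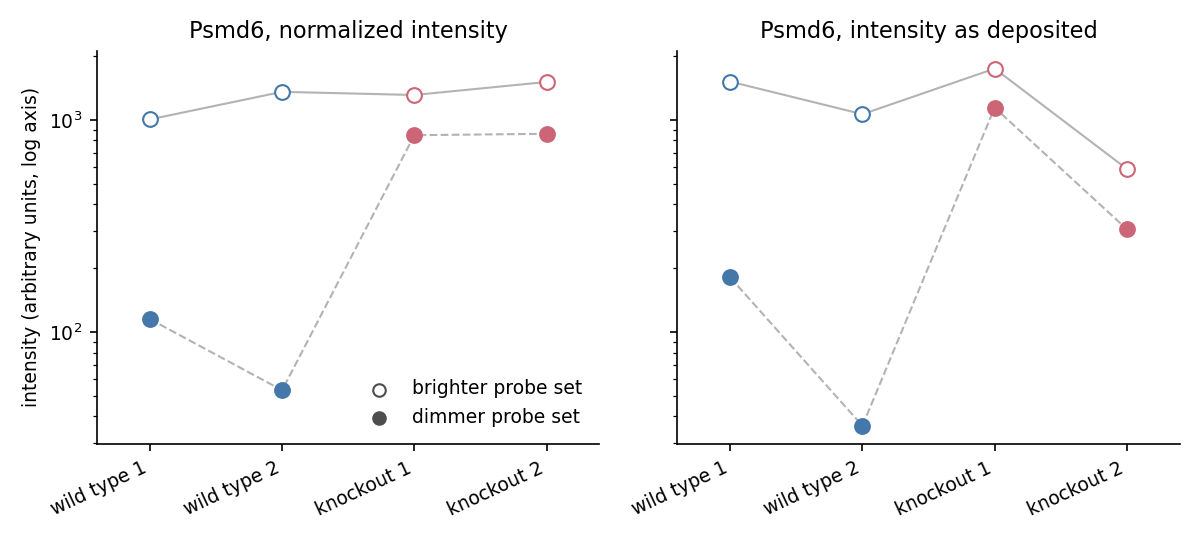
Intensity of the 2 Psmd6 probe sets on each of the 4 arrays (log axis, arbitrary units), after quantile normalization on the left and as deposited on the right; open circles are the brighter and filled circles the dimmer probe set, blue is wild type, red is knockout, and lines join the values of 1 probe set. The dimmer probe set is at 115 and 53.2 in wild type and at 847 and 860 in knockout after normalization, while the brighter one lies between 1006 and 1510 on all arrays.

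Among the subunit genes, Psmd6 was the exception in how far its probe sets differed. Of the 39 genes, 20 had several probe sets and 16 had at least 2 above the filter. For Psmd6 the log2 changes of its probe sets lay 2.93 apart, the second widest gap among the 5193 genes with at least 2 tested probe sets. As Psmd6 was chosen with this difference known, that rank is a description and not independent evidence. For the other 15 subunit genes the median gap was 0.17 and the widest 0.85, against a median of 0.34 over the 5193 genes, 189 of which had a gap above 1. That widest gap belonged to Psmc4, an ATPase of the base. Its brighter probe set measured 1353, 1104, 1547 and 492, low only on knockout 2, and its dimmer one 655, 712, 818 and 975, with both knockout arrays above both wild-type arrays. Their log2 changes were -0.47 and 0.38. Psmb4, a structural subunit of the beta ring, had -0.07 with its brightest probe set and -0.58 with the dimmer one, which measured 1506, 1172, 1393 and 562 and was again lowest on knockout 2. The gap was 0.59 for Psma6, 0.56 for Psmc6 and 0.50 for Psmb1. The probe sets of Psmb3 had 0.28 and 0.34, those of Psmc2 0.10 and 0.09, and those of Psmd13 0.26 and 0.33. Over the 16 genes, 15 of 23 dimmer probe sets had the sign of the brightest 1 and 8 had the other sign.

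**Figure D2:**
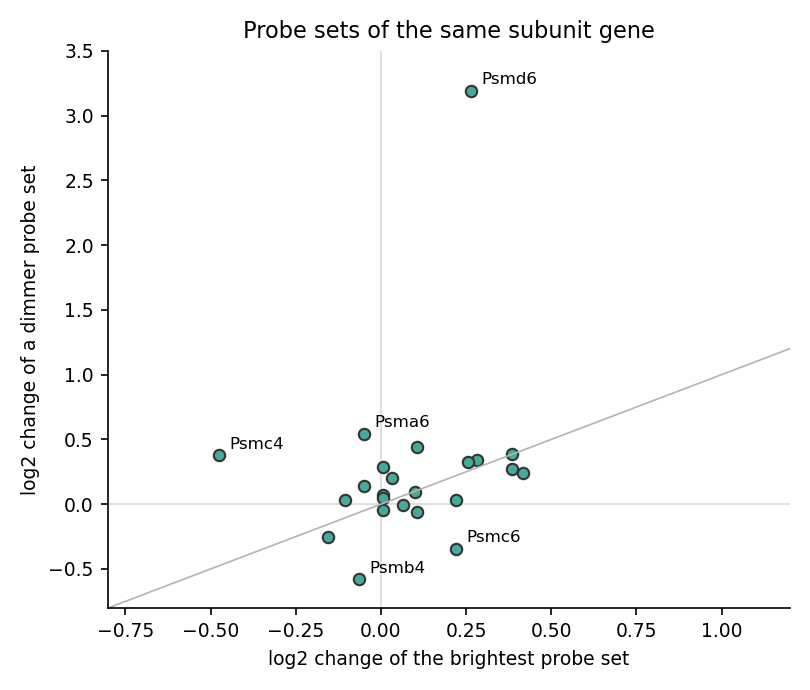
Log2 change (knockout minus wild type) of each dimmer probe set against that of the brightest probe set of the same gene, for the 16 subunit genes with at least 2 probe sets above the filter; each point is 1 of 23 dimmer probe sets and the line marks equal changes. Psmd6 stands alone at 0.26 and 3.19, and Psmc4 lies at -0.47 and 0.38.

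The genes next to Psmd6 on chromosome 14 showed no common direction. They were taken as the 3 measured genes on either side, a choice made after the Psmd6 values were seen. Thoc7, which takes part in mRNA export, measured 498, 564, 384 and 410 (log2 -0.40, SE 0.27), with knockout below wild type on all arrays. Atxn7, a subunit of a chromatin-modifying complex, measured 59.0, 64.9, 69.4 and 86.0 (log2 0.26, SE 0.30), with knockout above wild type. Synpr had -0.51 and Lrrc3b 0.38, while Il3ra and B230110C06Rik did not pass the filter. The limma adjusted p was 1 for the 4 tested.

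Promoter windows of the subunit genes were read for the elements bound by heat shock factors and by the factors that raise proteasome transcription, since Hsf4 is a heat shock factor. RefSeq windows (GRCm38.p6, 250 bases before to 50 after the start) were at hand for 32 of the 39 genes, 34 windows in all, and not for Psma8, Psmb1, Psmb2, Psmb7, Psmc3, Psmd3 and Psmd7. The heat shock element is built of inverted GAA units, searched as GAANNTTC and as TTCNNGAA, each of which reads the same on both strands. GAANNTTC was found in 2 of the 34 windows (Psmb5 and Psmb9) and in 7.86% of the 32851 windows of all genes. TTCNNGAA was found in 1 (Psmd4) and in 8.52% of all windows. At least 1 of these pairs was in 3 windows, 8.82% against 15.1% of all. TGACNNNGC, the core of the antioxidant response element bound by Nfe2l1 and Nfe2l2, searched on both strands, was found in 5 (Psmb5, Psmb6, Psmc6, Psmd9 and Psmd12), 14.7% against 12.4% of all. The CCAAT box, on both strands, was found in 13, 38.2% against 37.4% of all. None of the 4 motifs was in the Psmd6 window. The upstream 250 bases are shown for Psmd6, whose probe sets differ, for Psmb5, the only member with both kinds of element, and for Psmd4, with capitals for the heat shock and antioxidant matches. A match is a description of these letters and not a bound site.
Psmd6 (chr14:14120946-14121195, minus strand): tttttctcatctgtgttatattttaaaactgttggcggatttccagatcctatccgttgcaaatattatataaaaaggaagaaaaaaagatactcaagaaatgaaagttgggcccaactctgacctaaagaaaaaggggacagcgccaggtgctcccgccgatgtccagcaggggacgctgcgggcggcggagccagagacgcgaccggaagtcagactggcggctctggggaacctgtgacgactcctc
Psmb5 (chr14:54617996-54618245, minus strand): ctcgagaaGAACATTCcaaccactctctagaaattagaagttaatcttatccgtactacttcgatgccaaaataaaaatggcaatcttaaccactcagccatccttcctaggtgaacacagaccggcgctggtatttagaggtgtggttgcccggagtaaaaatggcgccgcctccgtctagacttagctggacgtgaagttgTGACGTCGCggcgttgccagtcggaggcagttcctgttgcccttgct
Psmd4 (chr3:95042615-95042864, minus strand): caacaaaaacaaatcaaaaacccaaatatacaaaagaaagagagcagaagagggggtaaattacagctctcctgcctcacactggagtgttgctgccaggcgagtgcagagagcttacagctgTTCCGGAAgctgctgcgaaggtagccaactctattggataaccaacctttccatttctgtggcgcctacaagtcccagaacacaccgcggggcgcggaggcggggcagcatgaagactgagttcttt

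None of the 36 tested subunit genes passed the threshold when each gene was represented by its brightest probe set. Over all genes, 4 of 11595 passed (0.0345%). At an unadjusted p under 0.05 in limma there were 0 subunit genes, against 2.35% of all genes. The log2 changes of the 36 ranged from -0.47 for Psmc4 to 0.47 for Psmb2, and each 95% interval included 0. For 30 genes the interval also lay within a 2-fold change in either direction. Of the 36 changes 9 were below 0, against 51.4% of all genes. Groups did not overlap for 10 of the 36 genes, 27.8%, against 27.0% of all genes. All 10 were higher in knockout, where the share of all genes was 12.7%, and 0 were lower, where it was 14.3%. Within both array numbers 23 were higher, against 26.1% of all genes, 1 was lower, against 27.5%, and 12 had opposite directions, against 46.3%.

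These directions depended on how the arrays were scaled. The median log2 change of the 36 genes was 0.17 and that of all genes tested -0.01. With values as deposited the medians were -0.41 and -0.46, and with median centring -0.24 and -0.28. Relative to all genes, the subunit median thus lay 0.18 higher with quantile normalization or trimmed-mean scaling and 0.05 higher with the other 2. Above the median of all genes were 27 of the 36 subunit genes with quantile normalization and 21 with values as deposited or median centring. Groups that did not overlap numbered 8 higher and 0 lower with trimmed-mean scaling, where the shares of all genes were 12.6% and 13.5%. They numbered 0 and 0 with values as deposited (0.129% and 4.33% of all genes) and 0 and 2 with median centring (1.88% and 13.5%), so that few genes of any kind could be higher there. The sign of the subunit median thus changed with the scaling, while it lay above the median of all genes under each scaling, by 0.05 to 0.18. That difference was not tested, and no direction is given for the group. Without wild type 1, the subunit median was -0.02.

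**Figure D3:**
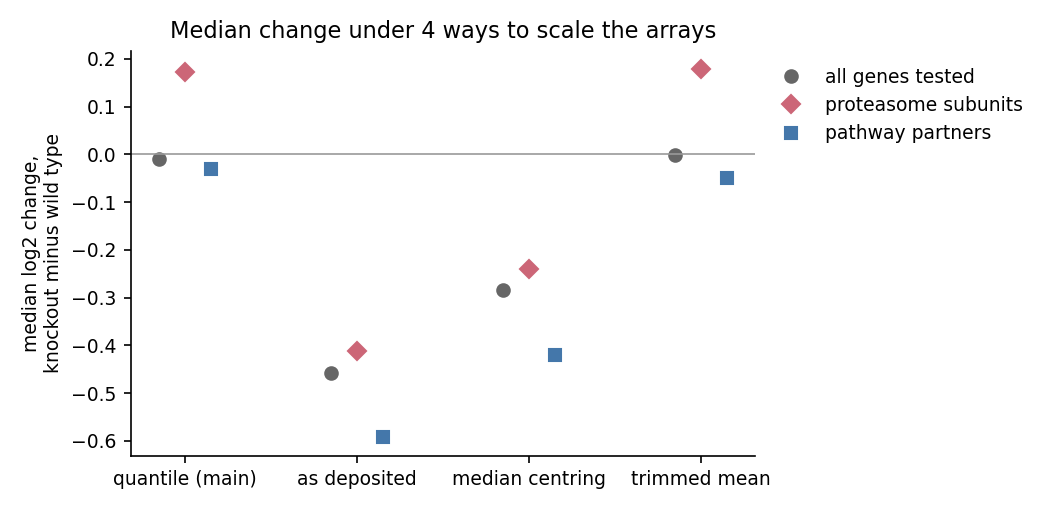
Median log2 change (knockout minus wild type) of all genes tested, of the 36 subunit genes and of the 28 pathway partners under 4 ways to scale the arrays. The medians of all genes move from -0.01 to -0.46 between quantile normalization and values as deposited, and the subunit median moves with them from 0.17 to -0.41.

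The alpha ring had changes near 0 and directions that differed between the numbers. Its 7 tested genes, Psma1 to Psma7, ranged from -0.18 to 0.07, and 6 of them had opposite directions within the numbers. Psma2 measured 763, 1094, 783 and 827, with the knockout arrays inside the wild-type range (log2 -0.18, SE 0.27). Psma1 measured 602, 887, 693 and 619 (log2 -0.16, SE 0.28) and Psma7 547, 652, 557 and 550 (log2 -0.11, SE 0.26). In each case wild type 2 was the highest array. Psma3 measured 1306, 1510, 1361 and 1518 and differed by array number rather than by genotype. Psma8, the alpha subunit of germ cells, measured 7.84, 4.29, 1.38 and 3.15, below the filter on every array.

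The catalytic subunits of the beta ring, Psmb5, Psmb6 and Psmb7, had small changes of 1 sign within both numbers. Psmb5, the chymotrypsin-like subunit whose promoter is printed above, measured 1161, 1146, 1479 and 1186. The knockout arrays were above the wild-type arrays, knockout 2 only barely (log2 0.20, SE 0.24, 95% interval -0.33 to 0.73). Psmb6, the caspase-like subunit, measured 1020, 1285, 1249 and 1340 (log2 0.17, SE 0.24), and Psmb7, the trypsin-like subunit, 2189, 2282, 2282 and 2995 (log2 0.22, SE 0.22). In both of these the groups touched or overlapped. The structural subunit Psmb2 had the highest change of all members and a wide spread. It measured 447, 631, 525 and 1045, high only on knockout 2 (log2 0.47, SE 0.35, 95% interval -0.33 to 1.26). Psmb3 measured 805, 1504, 964 and 1870 and was higher on both arrays of number 2. Psmb1 had a log2 change of 0.11.

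The inducible catalytic subunits, which replace the standard ones in immune cells and under interferon, were dim. Psmb8, the counterpart of Psmb5, measured 13.6, 13.7, 15.4 and 11.0, close to the filter (log2 -0.02, SE 0.34). Psmb9, the counterpart of Psmb6, measured 7.97, 7.62, 1.05 and 20.6 and was not tested. Psmb10, the counterpart of Psmb7, measured 39.0, 59.7, 46.4 and 51.5, the knockout arrays lying between the wild-type arrays (log2 0.01, SE 0.32, 95% interval -0.70 to 0.71). Psmb10 and the lid subunit gene Psmd7 lie on chromosome 8, as Hsf4 does. The thymus subunit Psmb11 measured 3.76, 0.26, 3.65 and 1.76. Tap1 and Tap2, peptide transporters encoded beside Psmb8 and Psmb9, also lay below the filter, with highest values of 6.95 and 8.79. Of the 16 listed genes of antigen processing and interferon response, 14 were measured, 9 passed the filter, 0 passed the threshold in either direction, and the median log2 change was -0.09. The lowest p belonged to H2-K1, a class I molecule, at 95.8, 55.4, 54.6 and 44.6 (log2 -0.45, SE 0.33). Of 13 macrophage and leukocyte markers 12 passed the filter, with summed levels of 804 and 757 in wild type and 735 and 908 in knockout and a median log2 change of -0.01. Among them Ptprc, the pan-leukocyte marker, was at 10.5 to 18.1. Csf1r, the brightest of these markers and the one with the lowest p, measured 249, 231, 267 and 334 (log2 0.30, SE 0.29), with knockout above wild type.

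In the ATPase ring, Psmc4 and Psmc5 were lowest on knockout 2. Psmc4 (above) had -0.47 (SE 0.44), made up of 0.19 within number 1 and -1.14 within number 2. Without knockout 1 its change was -1.31 (limma adjusted p = 0.0186), and without knockout 2 it was 0.33. The first of these sets knockout 2 alone against wild type, with the spread taken from the wild-type arrays, and 289 of the 11595 genes passed in it. Psmc4 was the only subunit gene among them. Psmc5 measured 1004, 1079, 1345 and 670, highest and lowest on the knockout arrays (log2 -0.13, SE 0.33), with 0.42 and -0.67 within the numbers. On knockout 2 the 3' to 5' signal ratio of the actin control was 1.89 and that of Gapdh 1.05, against 1.51 to 1.67 and 0.856 to 0.902 on the other arrays. The part of this in the low values was not tested. Psmc3 measured 968, 1065, 1187 and 1344, and the knockout arrays were above both wild-type arrays (log2 0.31, SE 0.24). Psmc1, Psmc2 and Psmc6 had 0.21, 0.10 and 0.22 with the brightest probe set, with the same sign within both numbers. A dimmer Psmc6 probe set measured 239, 253, 194 and 186, with knockout below wild type (log2 -0.34, SE 0.29). Another dimmer Psmc6 probe set had 0.03.

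After quantile normalization, all 3 measured non-ATPase subunits of the base were higher on both knockout arrays than on both wild-type arrays. None passed the test. Of all genes, 12.7% were higher in knockout without overlap. With values as deposited or median centring, 0 subunit genes were. Psmd1, the large scaffold of the base, measured 692, 773, 962 and 1035 (733 ± 57.8 and 999 ± 52.0, SD, n = 2). Its log2 change of 0.44 (SE 0.25, 95% interval -0.11 to 0.99) had the lowest unadjusted p of all members, 0.105, and was 0.47 and 0.41 within the numbers. Psmd4, a ubiquitin receptor with the TTCNNGAA match printed above, measured 658, 624, 893 and 792 (log2 0.38, SE 0.25, 95% interval -0.18 to 0.95). Its 2 dimmer probe sets had 0.27 and 0.39. Psmd2, the other scaffold, measured 907, 838, 1024 and 998 (log2 0.21, SE 0.24).

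The lid subunits had changes of 0.00 to 0.34 and, apart from Psmd11, the same sign within both numbers. Psmd12 measured 371, 408, 415 and 593 (log2 0.34, SE 0.29), Psmd8 812, 869, 974 and 1111 (log2 0.30, SE 0.24), and Psmd13 255, 207, 299 and 257 (log2 0.26, SE 0.29). In these 3 of the 8 lid genes the groups did not overlap after quantile normalization, by a narrow margin for Psmd12 and Psmd13. The share of all genes higher in knockout without overlap was 12.7%. Psmd14, the deubiquitinase of the lid, measured 675, 1131, 845 and 1148 and followed the array number (log2 0.17, SE 0.31). Psmd3 and Psmd7 had 0.27 and 0.07 with groups that overlapped. Psmd11, a lid subunit measured by 8 probe sets, had 0.00 (SE 0.29) with the brightest, and the other 4 that passed the filter had -0.05 to 0.28. The 3.19 of the dimmer Psmd6 probe set thus lay outside the range of the other tested lid probe sets. As it was known to differ when the gene was chosen, this is a description and not independent evidence.

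The chaperones that assemble the base differed among themselves. Psmd9 measured 98.3, 103, 114 and 171, highest on knockout 2 (log2 0.42, SE 0.31). Its dimmer tested probe set measured 21.7, 4.89, 13.7 and 21.0 (log2 0.24), with opposite directions within the numbers. Psmd5 measured 136, 253, 183 and 271 and was higher on the arrays of number 2 (log2 0.24, SE 0.36). Psmd10, also known as gankyrin, measured 137, 206, 125 and 155 (log2 -0.25, SE 0.32) and was the only tested member lower within both numbers, at -0.12 and -0.38. It is encoded on the X chromosome.

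**Figure D4:**
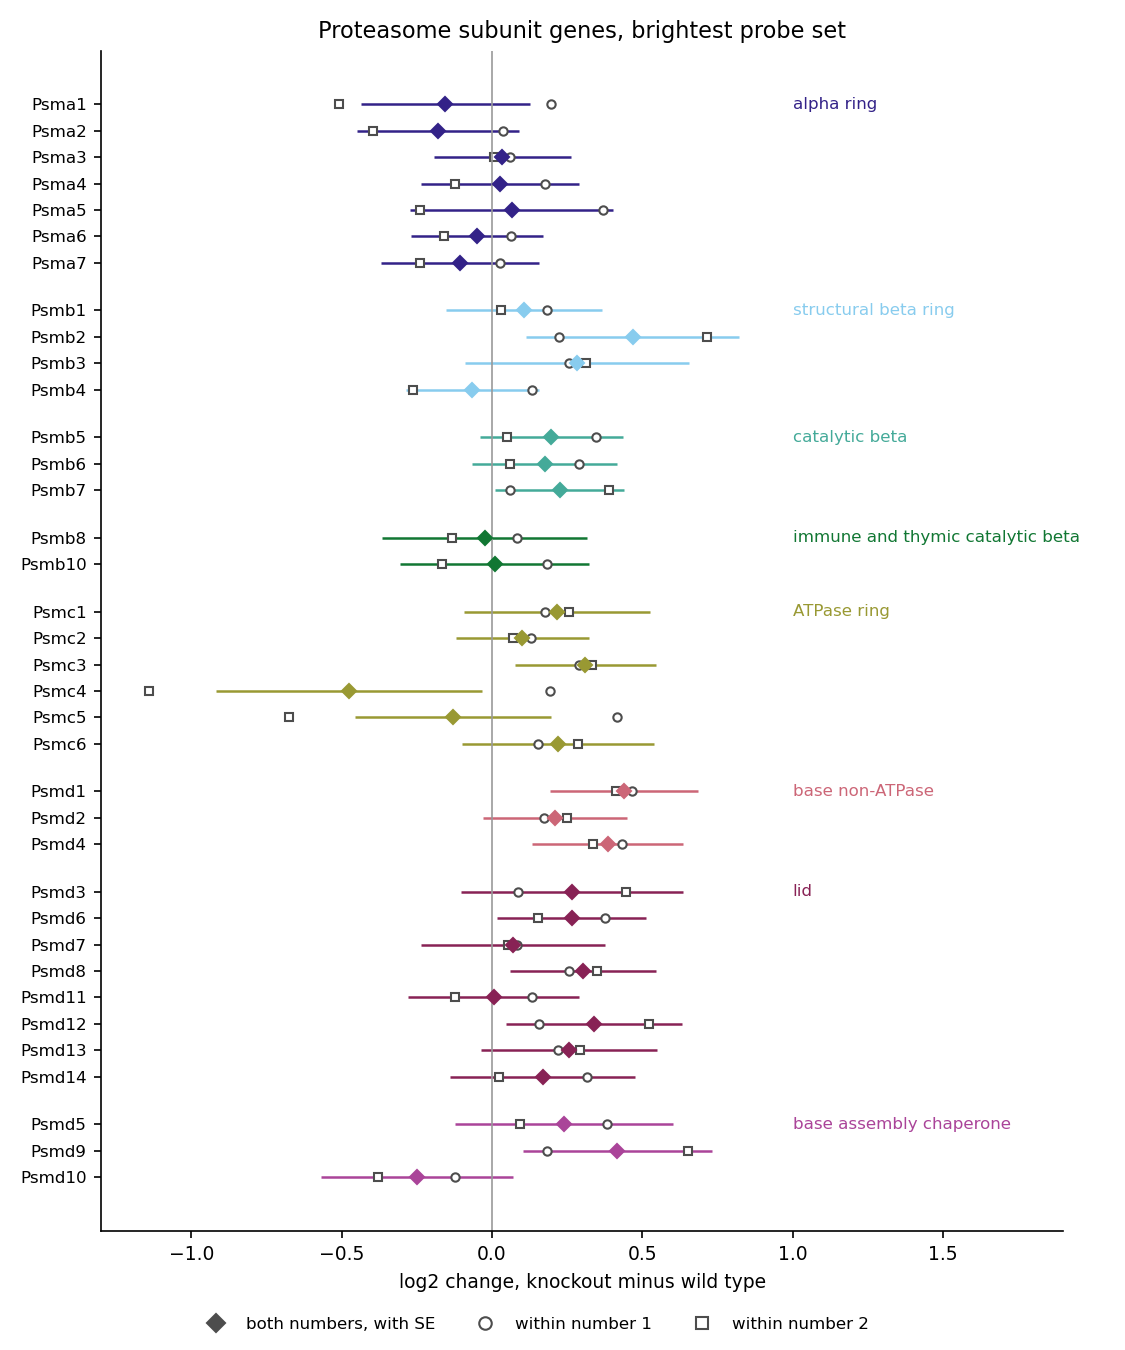
Log2 change (knockout minus wild type) of the 36 tested subunit genes by the brightest probe set, grouped by role; diamonds are the change over all 4 arrays with bars of 1 SE, open circles the difference within number 1 and open squares that within number 2. The changes lie between -0.47 and 0.47, the alpha ring lies around 0, and Psmc4 and Psmc5 have squares far to the left of their circles.

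The partners of the proteasome passed no test in either direction. Of 38 listed genes of assembly, activation, ubiquitin delivery and transcription, 28 were measured, all 28 passed the filter, 0 were called higher and 0 lower, and at an unadjusted p under 0.05 in limma there were 0. Their log2 changes ranged from -0.69 to 0.62 with a median of -0.03, and groups did not overlap for 4 higher and 1 lower, against 12.7% and 14.3% of all genes. Pomp, which matures the core, measured 895, 1217, 918 and 1431 and followed the array number (log2 0.13, SE 0.29). Psme4, an activator that caps the core, measured 757, 829, 857 and 1014 (log2 0.23, SE 0.25), and Vcp, the segregase that extracts ubiquitinated proteins, 1656, 1344, 1865 and 1737 (log2 0.27, SE 0.23), both with knockout above wild type. Ubqln2, a shuttle that carries substrates to the proteasome, measured 558, 505, 469 and 356 and was the partner with knockout below wild type (log2 -0.37, SE 0.28).

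The factors that transcribe subunit genes did not move together. Nfe2l1, which restores proteasome transcription when activity drops, measured 208, 163, 199 and 188 (log2 0.06, SE 0.30). Nfe2l2, the factor of the oxidative stress response, measured 51.3, 103, 110 and 134, with both knockout arrays above wild type (log2 0.62, SE 0.35, unadjusted p = 0.107 and adjusted p = 1 in limma). It had 0.91 within number 1 and 0.34 within number 2. Nfya and Nfyb, subunits of the factor that binds CCAAT, measured 57.7, 38.2, 65.8 and 2.85, and 75.6, 159, 96.8 and 55.8, both lowest on knockout 2 (log2 -0.69, SE 0.58, and -0.49, SE 0.39). Their partner Nfyc had -0.00. In the fit without knockout 1, where 289 genes passed and knockout 2 stands alone, Nfya had -1.62 (limma adjusted p = 0.00165).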

How the data were processed

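The authors deposited 1 linear intensity per probe set for each of the 4 arrays. Software and settings for summarising the probes were not given in the sources used here. Deposited trimmed means ranged from 21.4 to 96.2, so the arrays had not been scaled to each other. With limma 3.58.1 in R 4.3.3 the values were quantile normalized, an offset of 16 was added and log2 taken. The 64 control probe sets were then left out. Of the 45037 others, 34945 had 1 symbol, 932 several and 9160 none. Features with a mean log2 value of at least 4.86, the median, were tested by a linear model with a variance trend on intensity and Benjamini-Hochberg adjustment over all 11595 genes or 22519 probe sets. The procedure was tested on simulated data. The members, lists and rules were chosen with earlier results of these data known. Every member could be named by role. Values per array were given for Psmd6, the catalytic and tissue-restricted subunits and the 5 members and 3 partners with the lowest p in each direction, with Nfe2l1 and Pomp. Other members with values per array, and the neighbours of Psmd6, were chosen after their values were seen. Alternatives were other scalings, filters, offsets, no variance trend, the array number as a block, the mean of all probe sets, and leaving out each array. The number of arrays limits the precision.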

Additional observations from a re-analysis of the deposited data

How the results depend on the processing

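The count of subunit genes past the threshold was 0 under every setting run except without knockout 1, where it was 1 (Psmc4), so that it ranged from 0 to 1 with an array left out, as did the count of partners (Nfya). The count over all genes, 4 in the fit reported, was 0 with values as deposited, with all probe sets of a gene averaged or without a filter, 12 with median centring (0 higher, 12 lower), 7 with trimmed-mean scaling and 4 to 289 with an array left out, of which 289 was without knockout 1, 61 without knockout 2 and 8 without wild type 2. The count over all probe sets, also 4, was 0 with values as deposited or no filter, 16 with median centring (3 higher, 13 lower) and 5 to 663 with an array left out, with 663 without knockout 1 and 95 without knockout 2. Of the Psmd6 probe sets, 1 passed in the fit reported and 0 with values as deposited, median centring, no filter, offset 1 or no variance trend. The median change of the subunits was -0.41 with values as deposited, -0.24 with median centring and -0.02 to 0.23 with an array left out. Why these values move was not tested. The labels do not say that an array number pairs samples. Deviations from the group means of same-numbered arrays correlated at 0.43. With the array number as a block, 200 genes and 317 probe sets passed, among them 0 subunit genes, 0 partners and 1 Psmd6 probe set, and the subunit median was 0.17. Of 526 refits of single genes and probe sets, 96 changed sign. None of these was for the dimmer Psmd6 probe set, the only refitted value that had passed the threshold. For dim members such as Psmb8, signal close to the filter limits what could be seen.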
